A study of Homo sapiens with 2 samples.

Results

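Mitochondrial ribosomal proteins are the nuclear-encoded proteins of the ribosome that works inside mitochondria, and their mRNAs were compared between a CREB1 knockout clone and CREB1 wild-type cells of HCT116, a human colorectal carcinoma line. Members were the protein-coding genes whose symbol begins with MRPL or MRPS and a digit. This gave 76 of the 57820 genes in the table, 48 named for the large subunit and 28 for the small subunit. MRPL45 and MRPS21 fit the name but were not analysed here, because no identifier in the table matched theirs. Each genotype was measured in 1 library of total RNA after removal of ribosomal RNA, with cells of both grown in DMEM and fetal bovine serum, and the labels name no treatment. Per the labels' protocols, the knockout line was a clone from a lone cell, made with a plasmid that carries the nickase form of Cas9 and guides against CREB1. The sources used here do not say whether the wild-type culture was clonal, so clone and genotype cannot be told apart.

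The mitochondrial ribosome translates only the mRNAs of the mitochondrial genome, which encode core subunits of the respiratory chain and of ATP synthase. Its small subunit reads the mRNA and its large subunit forms the peptide bond. Some of its proteins descend from those of bacterial ribosomes, others are found only in mitochondria, and all reach the organelle by import from the cytosol. CREB1 is a transcription factor that binds the cAMP response element (CRE), and its family has been linked to mitochondrial biogenesis mainly through the coactivator PGC1-alpha, whereas genes of the mitochondrial ribosome are better known for NRF1, ETS-family (GABPA) and YY1 sites.

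Expected counts summed to 31178309 in the knockout library and 34511074 in the wild-type library. CREB1 itself had 499 counts in the knockout library and 614 in the wild-type library, a log2 ratio of -0.23 (95% counting interval -0.40 to -0.05), and such a count per gene cannot reveal a small indel in the coding sequence, so it does not check the knockout. Of 7 epithelial markers 6 were expressed in both libraries, and VIL1 had 9 counts in the knockout and 12 in the wild-type library. Their log2 ratios differed, with KRT18 at -0.26, KRT8 at -0.20, KRT19 at -0.13 and CDH1 at 0.18, each with an interval that excludes 0, and EPCAM at -0.02 and CDX2 at -0.10 with intervals that include 0. Of 3 leukocyte markers PTPRC and CD3E had 0 counts in both libraries, and CD14 had 1 count in the knockout and 0 in the wild-type library. Of 3 fibroblast markers COL1A1 had 89 counts in the knockout and 83 in the wild-type library, DCN had 1 and 0, and COL1A2 had 0 in both. The endothelial marker VWF had 17 counts in each library. The part of these differences in the results below was not tested. All ratios below are knockout over wild-type on the log2 scale after TMM scaling, and their intervals cover counting error only. A ratio compares shares of bulk RNA, so fewer cells that express a gene and less of its RNA per cell cannot be told apart. With 1 library per genotype no p-value was computed, and differences have no replicate check.

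Promoter windows are described first, because they bear on which members carry the element that CREB1 binds. They were searched after the ratios had been computed. RefSeq windows (GRCh38.p14) of 300 bases, from 250 before to 50 after an annotated start, were found for 67 members, and 11 of these have several windows. A gene was counted when any window held the letters on either strand. The full element TGACGTCA, which contains the core TGACG in both directions, was found in 1 of 67 members (1.49%) and in 3.0% of 15843 protein-coding genes. That member was MRPL4. The core TGACG was present in 24 members (35.8%), against 34.6% of all genes.

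The ETS motif CCGGAAG was found in 29 members (43.3%), against 16.5% of all genes. The YY1 motif AAGATGGC was found in 20 members (29.9%), against 4.66% of all genes. It occurred 23 times over all member windows, and 15 of these occurrences lay after the annotated start. Its letters contain ATG, the start codon, and whether such occurrences lie at the start of the coding sequence was not tested. The NRF1 motif (GCGC on either side of AT) was found in 1 member (1.49%), MRPL17, against 1.99% of all genes. Only the exact letters given were searched for each motif, so sites with variant letters were not counted. Shares were alike in large and small subunit genes, with ETS letters in 18 of 41 and 11 of 26 genes and YY1 letters in 12 of 41 and 8 of 26 genes. A match of letters is a description and not a bound site, and windows of overlapping starts share sequence. The shares of all genes include genes not expressed here, and shares over expressed genes alone were not computed.

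**Figure D1:**
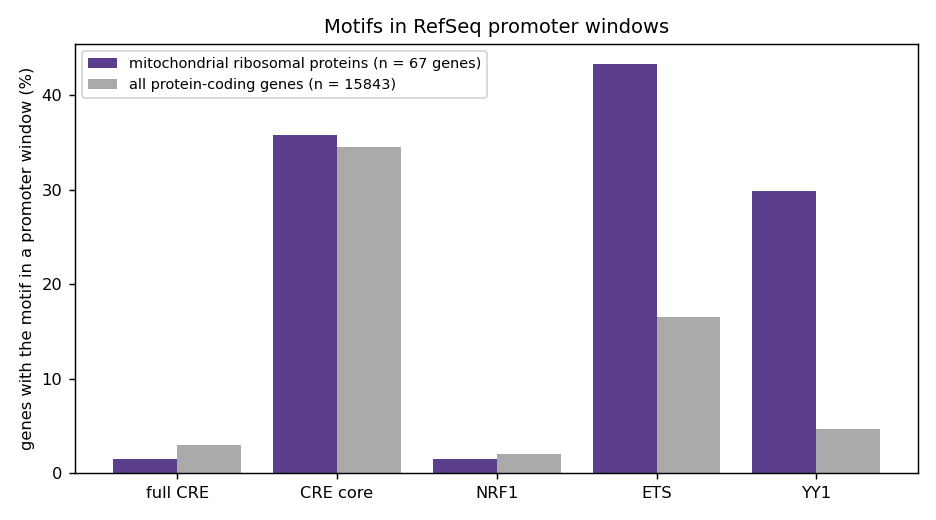
Share of genes (vertical axis, percent) with a motif in a RefSeq promoter window, for 67 mitochondrial ribosomal protein genes (left bar of each pair) and 15843 protein-coding genes (right bar). The ETS and YY1 bars of the members, 43.3% and 29.9%, are higher than those of all genes, 16.5% and 4.66%, whereas the CRE bars are 1.49% and 3.0%.

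The windows of 4 members are shown 5′ to 3′ on the strand of the gene, with full CRE, NRF1, ETS and YY1 motifs in capitals on either strand. They are MRPL4 for its CRE (chr19:10251964-10252263, plus strand), MRPL33 for its place among the lowest ratios (chr2:27771469-27771768, plus strand), MRPS22 as the member with the highest ratio (chr3:139343744-139344043, plus strand) and MRPS18A for carrying ETS and YY1 letters together (chr6:43687742-43688041, minus strand). In MRPL4 the CRE spans bases -32 to -25 from the start, MRPL33 and MRPS22 hold ETS letters, and the YY1 letters of MRPS18A lie after its start.
MRPL4: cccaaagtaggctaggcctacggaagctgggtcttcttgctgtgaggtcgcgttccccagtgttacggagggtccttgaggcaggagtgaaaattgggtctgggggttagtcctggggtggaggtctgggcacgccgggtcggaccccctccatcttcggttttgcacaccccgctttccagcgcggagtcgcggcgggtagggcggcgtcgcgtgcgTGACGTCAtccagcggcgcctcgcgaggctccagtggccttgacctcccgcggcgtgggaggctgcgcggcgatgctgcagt
MRPL33: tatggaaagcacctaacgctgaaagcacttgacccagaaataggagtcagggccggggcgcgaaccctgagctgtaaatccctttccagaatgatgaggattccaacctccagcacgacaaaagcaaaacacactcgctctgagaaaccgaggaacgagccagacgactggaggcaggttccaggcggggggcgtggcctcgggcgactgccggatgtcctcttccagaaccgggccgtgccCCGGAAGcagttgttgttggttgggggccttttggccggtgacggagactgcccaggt
MRPS22: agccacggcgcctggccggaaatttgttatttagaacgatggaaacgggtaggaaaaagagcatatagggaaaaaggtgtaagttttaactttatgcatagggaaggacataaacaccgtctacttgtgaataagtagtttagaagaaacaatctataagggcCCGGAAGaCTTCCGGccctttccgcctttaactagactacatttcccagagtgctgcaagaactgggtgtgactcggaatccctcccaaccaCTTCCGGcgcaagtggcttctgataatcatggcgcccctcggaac
MRPS18A: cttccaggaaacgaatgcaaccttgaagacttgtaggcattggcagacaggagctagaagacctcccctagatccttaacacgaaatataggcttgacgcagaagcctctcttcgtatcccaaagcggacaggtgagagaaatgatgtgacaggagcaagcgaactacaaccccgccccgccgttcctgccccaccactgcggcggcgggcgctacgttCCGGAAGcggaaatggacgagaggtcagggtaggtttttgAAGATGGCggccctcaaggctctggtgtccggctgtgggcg

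MRPL4, a protein of the large subunit with a bacterial homologue, had 974 counts in the knockout library and 1190 in the wild-type library. Its log2 ratio was -0.22 (interval -0.34 to -0.09), below the median of members without the full element, -0.07. Members with a window but without the full element were lower still, among them MRPL33 (-0.50), MRPL48 (-0.48) and MRPS31 (-0.41). With the element in 1 member, whether it goes with the ratio cannot be told. MRPL4 did not pass the 1.2-fold rule described next. The 24 members with the core TGACG had a median log2 ratio of -0.06, and 42 members with a window but without it had a median of -0.08. For ETS letters the medians were -0.03 over 28 members with them and -0.08 over 38 without, and for YY1 letters -0.06 over 20 and -0.08 over 46.

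Across the family, mRNA levels were close to each other in the knockout and wild-type libraries. Expressed here means a mean of at least 1 CPM, the count after scaling to a common library size, which 75 of the 76 members reached, with 294 to 3810 counts per library. None of these 75 was called at 2-fold by ratio with an interval that excludes no difference, against 1.61% of 11640 expressed protein-coding genes called lower and 1.24% called higher. That background includes genes of lower level than any of the 75, whose lowest level in the knockout library was 9.19 CPM. Of 9581 genes with a mean of at least 5 CPM, 61 were called lower and 74 higher at 2-fold, so 0 of 75 is near that share. At 1.2-fold, 10 members (13.3%) were called lower and 4 (5.33%) higher, where 16.3% and 17.8% of expressed protein-coding genes were. The members' share of lower calls was near the background and their share of higher calls was below it. In all, 61 members (81.3%) lay within 1.2-fold, and 75 of 75 lay within 1.5-fold. Within 1.2-fold were 61.4% of expressed protein-coding genes and 66.1% of those with a mean of at least 5 CPM. Neither background was matched to the level of the members.

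The member that failed the filter was MRPL30, of the large subunit. It had 16.5 expected counts in the knockout library and 2.08 in the wild-type library, rounded to 17 and 2. The log2 ratio was 2.87 (interval 1.09 to 6.32). These counts are fractional and the gene overlaps 2 annotated genes on its own strand, so its value is uncertain. Fractional counts occurred in 10 of the 76 members, and of the 75 expressed members 38 overlap an annotated gene on the opposite strand and 22 one on their own strand.

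**Figure D2:**
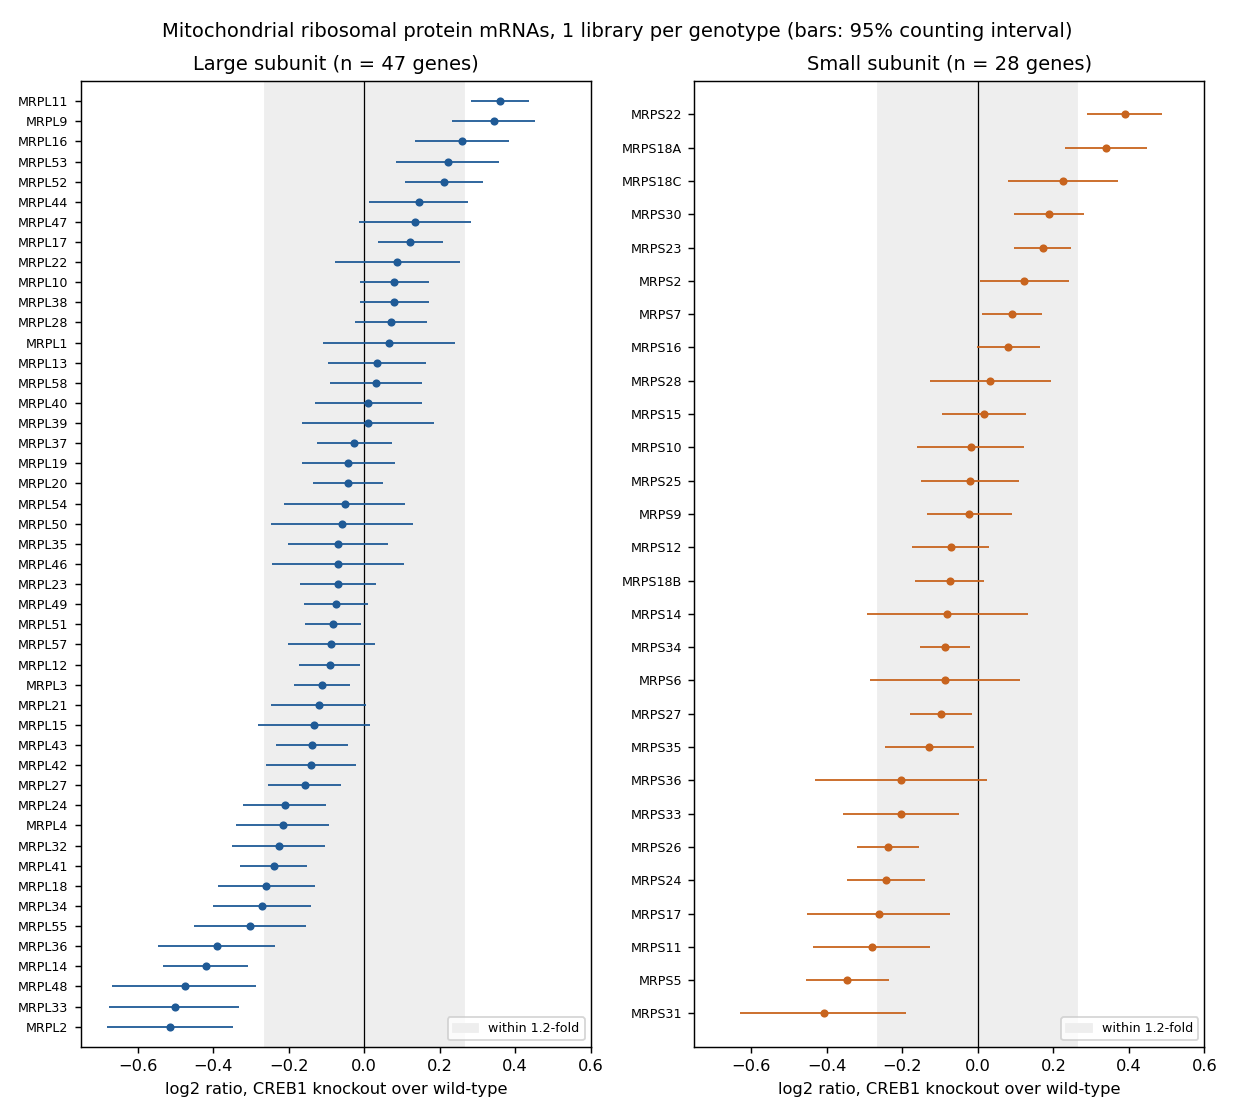
Log2 ratio of each expressed mitochondrial ribosomal protein gene (horizontal axis, knockout over wild-type), large subunit on the left and small subunit on the right, sorted by ratio. Points are single ratios from 1 library per genotype, bars are 95% counting intervals, and the grey band marks 1.2-fold. Large subunit genes run from -0.51 to 0.36 and small subunit genes from -0.41 to 0.39.

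The medians of the large and small subunits were close to each other. The median log2 ratio was -0.07 over 47 expressed large subunit genes and -0.07 over 28 small subunit genes, a difference of 0.0042, against 0.0077 over expressed protein-coding genes. Below 0 were 30 of 47 large subunit genes (63.8%) and 18 of 28 small subunit genes (64.3%), where 48.8% of expressed protein-coding genes were. The spread was alike too, with an SD across genes of 0.20 in both subunits. It was 0.43 across expressed protein-coding genes and 0.35 across those with a mean of at least 5 CPM. The latter had a median of 21.8 CPM in the knockout library against 34.5 for members, so these spreads were not matched for level. The interval lay below 0 for 18 large and 10 small subunit genes, together 37.3% against 26.2% of the background. It lay above 0 for 7 of 47 large subunit genes (14.9%) and 7 of 28 small subunit genes (25%), together 18.7% against 27.2%. The means were -0.071 in the large and -0.043 in the small subunit. Genes are not replicates, so no test was made between the subunits.

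These medians depended on how the libraries were scaled. With total-count scaling the median was 0.0037 in the large subunit and -0.00045 in the small subunit, while that of expressed protein-coding genes was 0.081. Total-count scaling also moved the calls at 1.2-fold, to 7 members lower and 8 higher, with 11.6% of expressed protein-coding genes lower and 24.2% higher. The distance of all members from that background was -0.077 with TMM and -0.077 with total counts. A change of scaling shifts all genes alike, so this distance could hardly move and its constancy is no check. The distance shrank to -0.0056 when log2 ratios were corrected for GC content and transcript length. Over expressed members the median transcript length was 1126 bases and over expressed protein-coding genes 2592 bases, and across those 11640 genes Spearman's rho between length and log2 ratio was 0.17, given as a description. The genes share 2 libraries, and how far length or library preparation enters the ratio of single members was not tested.

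**Figure D3:**
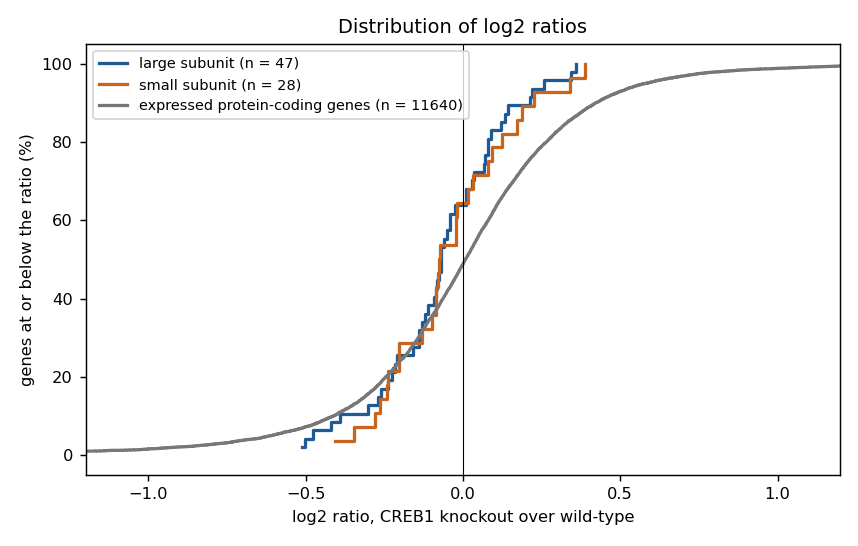
Cumulative share of genes (vertical axis, percent) at or below each log2 ratio (horizontal axis, knockout over wild-type) for 47 large subunit genes, 28 small subunit genes and 11640 expressed protein-coding genes. The lines of the subunits reach 63.8% and 64.3% at 0 where the background reaches 48.8%, and are steeper than it.

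**Figure D4:**
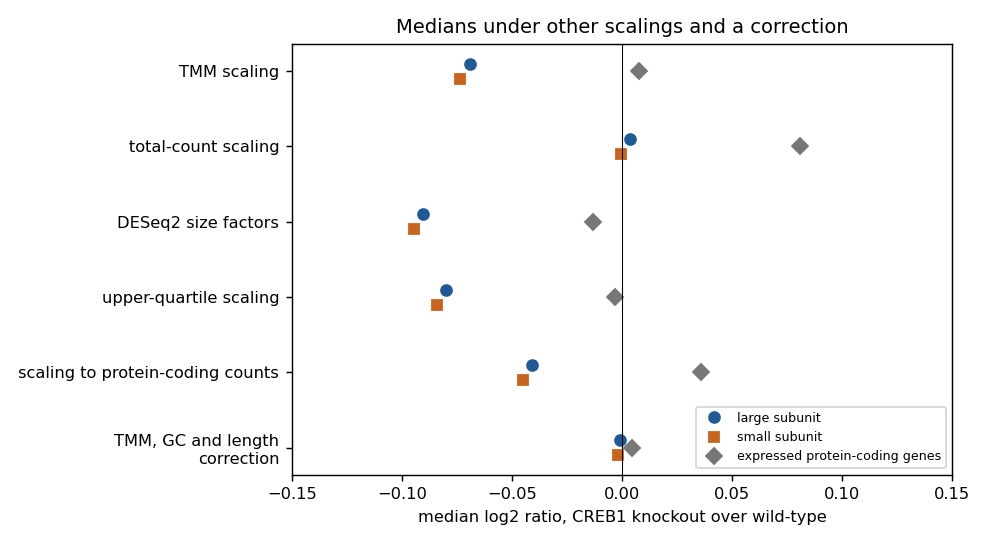
Median log2 ratio (horizontal axis, knockout over wild-type) of large subunit, small subunit and expressed protein-coding genes under each scaling and after the GC and length correction (rows). The subunits stay together and left of the background in each scaling row, as a change of scaling shifts all genes alike. In the last row the 3 medians lie between -0.0020 and 0.0047.

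Among 47 expressed large subunit genes, 7 (14.9%) were called lower at 1.2-fold, beside 16.3% of expressed protein-coding genes. MRPL2 (ENSG00000112651.7, chromosome 6), whose bacterial counterpart lies near the peptidyl transferase centre, had 496 counts in the knockout library and 745 in the wild-type library, a log2 ratio of -0.51 (interval -0.68 to -0.35). MRPL33 (ENSG00000243147.3, chromosome 2), a small protein with a bacterial homologue, had 467 counts in the knockout and 696 in the wild-type library, a log2 ratio of -0.50 (interval -0.67 to -0.33). MRPL48, a mitochondria-specific protein of the central protuberance, had 384 and 562 counts in the knockout and wild-type libraries (-0.48). MRPL14, which lies at the subunit interface and binds the assembly factor MALSU1, had 1115 counts in the knockout and 1570 in the wild-type library (-0.42, interval -0.53 to -0.31). MRPL36 (589 counts in the knockout and 812 in the wild-type library, -0.39), MRPL55 (-0.30) and MRPL34 (-0.27) completed the group. Of these 7, 6 have bacterial homologues and MRPL48 does not, where 29 of the 47 expressed large subunit genes have one.

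In the other direction, 2 large subunit genes (4.26%) were called higher, beside 17.8% of expressed protein-coding genes. MRPL11 (ENSG00000174547.9, chromosome 11), part of the base of the stalk where translation factors dock, had 2990 counts in the knockout library and 2453 in the wild-type library, a log2 ratio of 0.36 (interval 0.28 to 0.44). MRPL9 (ENSG00000143436.6, chromosome 1) had 1511 counts in the knockout and 1254 in the wild-type library, a log2 ratio of 0.34 (interval 0.23 to 0.45). MRPL16, MRPL53 and MRPL52 followed with log2 ratios of 0.26, 0.22 and 0.21 and were not called. MRPL12, the stalk protein that has also been reported to bind the mitochondrial RNA polymerase, had 2345 counts in the knockout and 2629 in the wild-type library, a log2 ratio of -0.09 (interval -0.17 to -0.01). Stalk and stalk-base proteins thus differed among themselves, with MRPL10, which anchors MRPL12, at 0.08.

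Among 28 small subunit genes, 3 (10.7%) were called lower at 1.2-fold, beside 16.3% of expressed protein-coding genes. MRPS31 (ENSG00000102738.6, chromosome 13), a mitochondria-specific protein, had 295 counts in the knockout library and 412 in the wild-type library, a log2 ratio of -0.41 (interval -0.63 to -0.19). Summed with its pseudogene MRPS31P5, which was higher in the knockout library, it had 458 counts in the knockout and 519 in the wild-type library, and the log2 ratio of -0.11 (interval -0.29 to 0.08) was not called. MRPS5 (ENSG00000144029.7, chromosome 2), whose bacterial homologue affects decoding accuracy, had 1187 counts in the knockout and 1587 in the wild-type library, a log2 ratio of -0.35 (interval -0.46 to -0.24), with a fractional count and a gene that overlaps it on the same strand. MRPS11, with a bacterial homologue, had 618 counts in the knockout and 790 in the wild-type library (-0.28, interval -0.43 to -0.13). MRPS17 (-0.26) and MRPS24 (-0.24) came next and were not called.

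Called higher were 2 genes that carry small subunit names (7.14% of 28), beside 17.8% of expressed protein-coding genes. MRPS22 (ENSG00000175110.7, chromosome 3), a mitochondria-specific protein mutated in a mitochondrial disease, had 1839 counts in the knockout library and 1478 in the wild-type library, a log2 ratio of 0.39 (interval 0.29 to 0.49). MRPS22 overlaps 6 annotated genes on the opposite strand, and 3 on its own, and the sources used here do not give the strand setting of the counting, so its value is uncertain. MRPS18A (ENSG00000096080.7, chromosome 6) had 1530 counts in the knockout and 1273 in the wild-type library, a log2 ratio of 0.34 (interval 0.23 to 0.45). MRPS23 (0.17) was among the highest 5 and was not called. The strand limit holds for other called members too. Of those called higher, MRPL11 and MRPL9 overlap 2 genes each on the opposite strand and MRPS18A overlaps 1. Among those called lower, MRPL33, MRPL48, MRPL34 and MRPS11 overlap 2 each there. MRPL2, MRPL14 and MRPS31 overlap 1 each, and MRPL36, MRPL55 and MRPS5 overlap none there.

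The 3 MRPS18 genes are paralogs related to bacterial S18, and structures of the human ribosome place MRPS18A in the large subunit and MRPS18B and MRPS18C in the small subunit. MRPS18C had 812 counts in the knockout and 731 in the wild-type library, a log2 ratio of 0.22 (interval 0.08 to 0.37). MRPS18B had 1809 counts in the knockout and 2005 in the wild-type library, a log2 ratio of -0.07 (interval -0.17 to 0.02). MRPS18A and MRPS18C were thus higher in the knockout library beyond counting error while the interval of MRPS18B included 0. All 3 had whole-number counts.

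MRPS30 also lies in the large subunit in spite of its symbol, and MRPS36 is now known as a subunit of the 2-oxoglutarate dehydrogenase complex. MRPS30 had 2004 counts in the knockout and 1851 in the wild-type library, a log2 ratio of 0.19 (interval 0.10 to 0.28), and MRPS36 had 294 and 356 counts (-0.20, interval -0.43 to 0.02). This naming changed the balance of summed counts. By symbol, large subunit counts were 1.54 times the small subunit counts in the knockout library and 1.58 times in the wild-type library, a log2 change of -0.033 (Wald interval for counting error -0.059 to -0.0075). With MRPS30 and MRPS18A counted in the large subunit and MRPS36 left out, the ratios were 1.82 and 1.81, a log2 change of 0.0048 (interval -0.022 to 0.031).

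Summed over subunits, 58564 counts in the knockout and 63551 in the wild-type library came from large subunit genes by symbol. The log2 ratio of the sums was -0.04 (interval -0.061 to -0.028), which turned to 0.03 with total-count scaling. Small subunit genes had 38040 counts in the knockout and 40335 in the wild-type library. Their log2 ratio was -0.01 (interval -0.031 to 0.0092), against 0.06 with total-count scaling. The family as a whole held 0.638% of protein-coding counts in the knockout library (exact 95% interval 0.634% to 0.642%) and 0.640% in the wild-type library (0.636% to 0.644%).

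Levels within the ribosome differed far more between genes than between libraries. Per kilobase of transcript, expressed members ranged from 4.19 to 158 CPM in the knockout library and from 4.36 to 167 CPM in the wild-type library. The highest large subunit levels were those of MRPL51 (158 CPM per kilobase in the knockout and 167 in the wild-type library), MRPL49 (133 and 141) and MRPL23 (73.3 and 77.0), and the lowest those of MRPL50 (4.19 and 4.36) and MRPL22 (6.11 and 5.75). In the small subunit MRPS34, needed for stable 12S ribosomal RNA, was highest (103 CPM per kilobase in the knockout and 110 in the wild-type library). It was followed by MRPS26 (60.0 and 70.7) and MRPS24 (59.8 and 70.8), and MRPS14 (5.12 and 5.41) and MRPS31 (6.31 and 8.37) were lowest. The subunits had like levels, with a median of 32.3 CPM per kilobase for large and 32.1 for small subunit genes in the knockout library and of 34.2 and 31.8 in the wild-type library. The length used was the median of annotated complete transcripts, so levels of genes with long alternative transcripts depend on it.

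**Figure D5:**
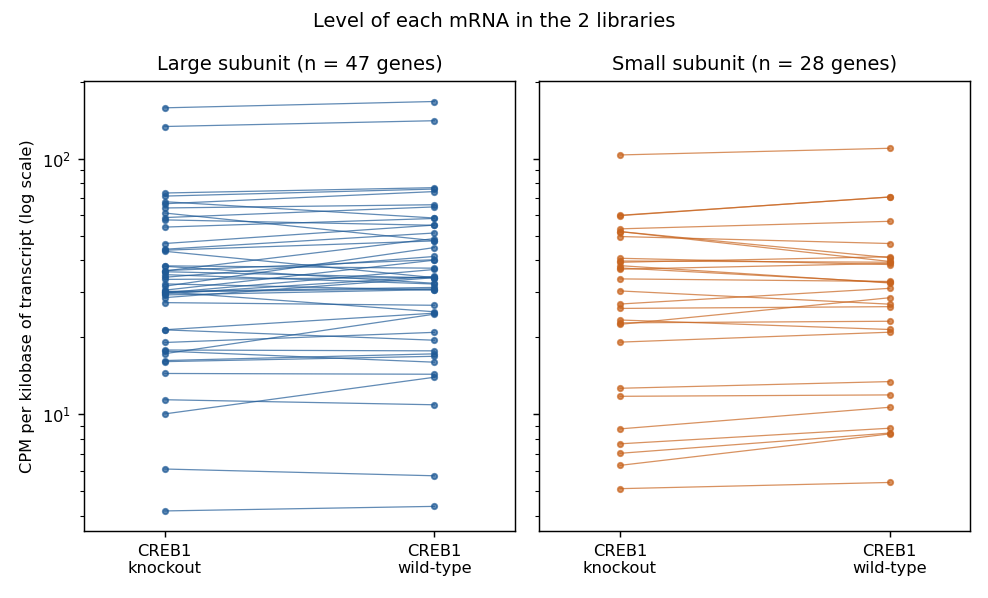
Level of each expressed member in CPM per kilobase of transcript (vertical log axis) in the knockout (left) and wild-type (right) library, with large subunit genes in the left panel and small subunit genes in the right panel. Each line joins the 2 values of a gene. The lines are nearly flat, while levels span 4.19 to 158 in the knockout and 4.36 to 167 in the wild-type library.

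Members with a bacterial homologue (44 genes) had a median log2 ratio of -0.07, as did the 31 mitochondria-specific members (-0.07). The classes follow the systematic names of the proteins, so MRPS18A and MRPS18B, though related to S18, and MRPS36 were counted as mitochondria-specific. Called lower at 1.2-fold were 8 of 44 members with a bacterial homologue (18.2%) and 2 of 31 mitochondria-specific members (6.45%). Called higher were 2 (4.55%) and 2 (6.45%), beside a background of 17.8%. In the large subunit the lower calls were 6 of 29 genes with a bacterial homologue (20.7%) and 1 of 18 mitochondria-specific genes (5.56%). In the small subunit they were 2 of 15 (13.3%) and 1 of 13 (7.69%), and the background of lower calls was 16.3%. With the bacterial homologue class first, the medians were -0.09 and -0.06 in the large and -0.02 and -0.09 in the small subunit.

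On chromosome 17 lie 7 expressed members, 5 of the large and 2 of the small subunit. Their log2 ratios ran from -0.16 in MRPL27 to 0.17 in MRPS23, with a median of 0.08 and 0 calls at 1.2-fold, beside a background of 16.3% lower and 17.8% higher. Between them were MRPL12 (-0.09), MRPL58 (0.03), a peptidyl-tRNA hydrolase that rescues stalled ribosomes, MRPL38 (0.08), MRPL10 (0.08) and MRPS7 (0.09).

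Proteins of the mitochondrial ribosome that carry other symbols were close to no difference as well. The log2 ratios were -0.17 for CHCHD1 (628 counts in the knockout and 744 in the wild-type library), -0.08 for GADD45GIP1, -0.07 for DAP3, 0.09 for AURKAIP1 and 0.10 for PTCD3. None of the 5 was called at 1.2-fold, beside the same background.

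Of 16 mitochondrial translation factors, 2 were called lower and 0 higher at 1.2-fold, with a median log2 ratio of -0.10. These shares, 12.5% and 0%, stand beside 16.3% and 17.8% of expressed protein-coding genes. MRRF, the ribosome recycling factor, had 840 counts in the knockout library and 1140 in the wild-type library, a log2 ratio of -0.37 (interval -0.50 to -0.24). The release factor homologue MTRF1 had 102 and 134 counts, and its interval, -0.71 to 0.06, included 0. The highest were the elongation factor GUF1 (0.18) and the membrane insertase OXA1L (0.18), which were not called. Of 23 assembly factors, 5 (21.7%) were called lower and 2 (8.70%) higher, with a median of -0.05, beside the same background of 16.3% and 17.8%. MPV17L2 had 438 counts in the knockout and 616 in the wild-type library (-0.42, interval -0.60 to -0.24). The GTPase NOA1 had 1058 and 1422 counts (-0.35, interval -0.47 to -0.24). The GTPase MTG1 had 275 counts in the knockout and 209 in the wild-type library (0.47, interval 0.20 to 0.74), and ERAL1, which binds 12S ribosomal RNA, had 918 and 783 (0.30, interval 0.16 to 0.44). In neither list was a gene beyond 1.5-fold.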

How the data were processed

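The authors deposited 1 table of expected counts, with a column for the CREB1 knockout and a column for the wild-type library. RSEM 1.2.26, STAR 2.4.2a, cutadapt 2.0 and build hg19 are named in the submitters' processing notes. The sources used here give neither annotation release nor strand setting. RSEM divides reads shared between genes.

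Of 57820 identifiers, 52338 (90.5%) matched GENCODE 29 without versions and gave symbols and biotypes; unmatched identifiers held 35.2% of knockout and 37.0% of wild-type counts and stayed in library sizes. Counts were rounded and TMM-scaled (edgeR 4.0.16, R 4.3.3), with a prior count of 0.5 in log2 ratios and exact (Clopper-Pearson, 95%) conditional binomial intervals. These intervals were run on simulated libraries that held counting error only, which is the model they assume. That run checks the code and not how well the intervals suit these data. Read pairs are not independent molecules, so intervals cover counting error only. Calls needed a mean of at least 1 CPM, a ratio of at least 2-fold or 1.2-fold and an interval excluding 0. Named genes were CREB1, the 5 lowest and 5 highest members per subunit, extremes per kilobase, chromosome 17 members, subunit exceptions, and extremes of the other lists. Members and lists were chosen with earlier results of these data known. The GC and length correction was a loess fit over expressed protein-coding genes. DESeq2 1.42.0 size factors were an alternative scaling.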

Additional observations from a re-analysis of the deposited data

How the results depend on the processing

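No paired analysis was possible because each genotype has 1 library, and no replicate was left out for the same reason. Of 97 values recomputed under 11 alternatives, 74 stayed within a set tolerance or within 1.5 times a count, 16 moved and 7 changed sign. Some of the 74 could hardly have moved. Scalings shift all genes alike, and a filter at 5 CPM dropped no expressed member. For subunit medians the tolerance was the half-width of the interval of summed counts, 0.016 (large) and 0.020 (small). It is not an error of the median and exceeds the difference between subunit medians, 0.0042. The tally is therefore no measure of stability.

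With total-count scaling, 8 members were higher at 1.2-fold in place of 4, the medians were 0.0037 (large) and -0.00045 (small), and the ratios of summed counts were 0.029 (large) and 0.062 (small). With DESeq2 size factors the medians were -0.090 and -0.094 and the summed ratios -0.065 and -0.032. Scaled to protein-coding counts, the medians were -0.041 and -0.045 and the summed ratios -0.016 and 0.017. These scalings shift all genes alike, so the difference between subunit medians and the distance from the background could hardly move under them. After the GC and length correction the medians were -0.00088 and -0.0020, and the distance from the background was -0.0056; the cause was not tested. Without a filter 1 member, MRPL30, was called at 2-fold. By structure the small subunit's summed ratio was -0.034 and the balance change, -0.033 by symbol, turned to 0.0048. Without chromosome 17 that summed ratio was -0.035. Without members with fractional counts it was 0.0019, the small subunit median was -0.047 and the balance changed by -0.055. The difference between subunit medians, 0.0042, changed sign to -0.025 without members with fractional counts and lay between 0.0011 and 0.0084 under the other alternatives run. Counting error leaves a median uncertainty of 0.12 (log2) per member. The share within 1.2-fold, the distance from the background and the large-to-small balance were chosen as measures after seeing the data, with their alternatives.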

Other observations

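Some mitochondrial ribosomal protein genes lie head to head with another gene. By a rule added after the ratios had been seen, an opposite-strand protein-coding gene that starts within 1000 bases in GENCODE 29 was taken as a partner. Starts on either side counted, so overlapping 5′ ends are included. Of 75 expressed members 28 had a partner, and 21 had an expressed partner outside the family. The log2 ratios of member and partner had the same sign in 12 of 21 pairs. Across the pairs, which share both libraries, Pearson's r was 0.30 and Spearman's rho 0.43. The like shares over all protein-coding genes and other pairs were not computed. MRPL32 (-0.23) and its partner PSMA2, a proteasome subunit (-0.38), were both lower in the knockout library, as were MRPL18 (-0.26) and TCP1, a chaperonin subunit (-0.32). MRPL14 was lower (-0.42) while the interval of its partner TMEM63B, -0.014 to 0.25, included 0. PPP1R10, a regulator of protein phosphatase 1, was higher (0.42, interval 0.29 to 0.55) while the interval of its partner MRPS18B included 0. MRPL46 and MRPS11 lie head to head with each other, with log2 ratios of -0.07 and -0.28. The named pairs were chosen after their values were seen.

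Of 69 pseudogenes of the family in the table, 9 had a count, with sums of 237 in the knockout and 163 in the wild-type library. MRPS31P5 held 163 counts in the knockout library and 107 in the wild-type library, a log2 ratio of 0.68 (interval 0.32 to 1.05), opposite to MRPS31. The RNA was treated to deplete ribosomal RNA, per the labels' protocols, and how far this acted on mitochondrial ribosomal RNA was not tested. The 12S gene MT-RNR1 had 69 counts in the knockout library and 110 in the wild-type library, and the 16S gene MT-RNR2 had 186 and 173.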
